A study of Homo sapiens with 8 samples.

Results

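The MYC, MAX and MXD network is a group of transcription factors that compete for the same partner and the same DNA element. The genes were listed by name: MYC, MYCN and MYCL, their partner MAX, and the antagonists MXD1, MXI1, MXD3, MXD4, MNT and MGA. Of these 10 listed genes, 9 had a row among the 14526 genes of the deposited expression table. MYCN, the family member known from neuroblastoma and embryonic tissue, had no row, and genes under the authors' expression filter were not in that table. MYC proteins pair with MAX through a basic helix-loop-helix leucine zipper, bind the E-box CACGTG and recruit histone acetyltransferases, which favours growth genes. The MXD proteins, MNT and MGA pair with the same MAX and bind the same element, where MXD proteins and MNT recruit SIN3 and histone deacetylases. In many tissues MYC is high in dividing cells, and several MXD proteins are higher in resting or differentiating cells.

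RNA was sequenced from cultured human cells labelled HepG2, a line derived from a liver carcinoma, grown in DMEM with serum. The control group held 4 untreated replicates, and the SB group held 4 replicates given sodium benzoate (SB), a food preservative, at 10 mM for 24 h. SB was used in the study to raise benzoylation of histone lysines, and the comparison asks which transcripts differed after it. The study calls the replicates biological, and the p-values measure the spread between these 8 libraries only.

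Each library held between 36990091 and 44878446 reads over all 14526 genes of the table, as recovered from the deposited values. Of 20 hepatocyte markers, 17 had no row, ALB, AFP, TTR and HNF4A among them, and the 3 with a row had group means from 0.192 to 0.875 RPKM. The label was thus not borne out by the markers that define a liver line, and no other name is given to the cells here. Of 8 fibroblast markers 4 had a row, with summed levels from 6.63 to 8.97 RPKM in the control group and from 6.62 to 6.98 RPKM in the SB group. Of 8 leukocyte markers 3 had a row, with sums from 3.28 to 3.77 RPKM and from 3.35 to 4.14 RPKM, and PTPRC, CD3E and CD14 were among those without one. The summed level of the 3 hepatocyte markers ran from 1.13 to 1.28 RPKM in the control group and from 1.91 to 2.1 RPKM in the SB group. The part of these markers in the results was not tested. The control replicate 1 stood apart, with the far value of its group for 14.6% of all genes, against at most 0.620% for any other control library, so values without it are given below where they matter.

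Levels are given in RPKM, reads scaled to counted length and to library size, so that genes can be set side by side. Differences are given on the log2(RPKM + 1) scale, SB minus control, with the limma p-value adjusted over all 14526 genes and called below 0.05. Adding 1 RPKM lowers the differences of genes with low levels. In bulk RNA, fewer cells with a transcript and less transcript per cell cannot be told apart.

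Of the 9 measured members, 4 were called higher after SB (MXD1, MXD4, MGA and MXD3) and 3 lower (MYC, MAX and MXI1), while MYCL and MNT did not pass the threshold. Over all genes 33.0% were called higher and 32.6% lower, 65.6% together, so a call by itself was common in these data. For 6 members the control and SB ranges did not overlap, as was the case for 61.5% of all genes. The median difference over the 9 members was 0.14, against 0.0045 over all genes. Of all called genes, 50.2% were higher, a share that became 65.1% without the authors' TMM scaling of library sizes and 41.0% when each library was centred on its median.

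**Figure D1:**
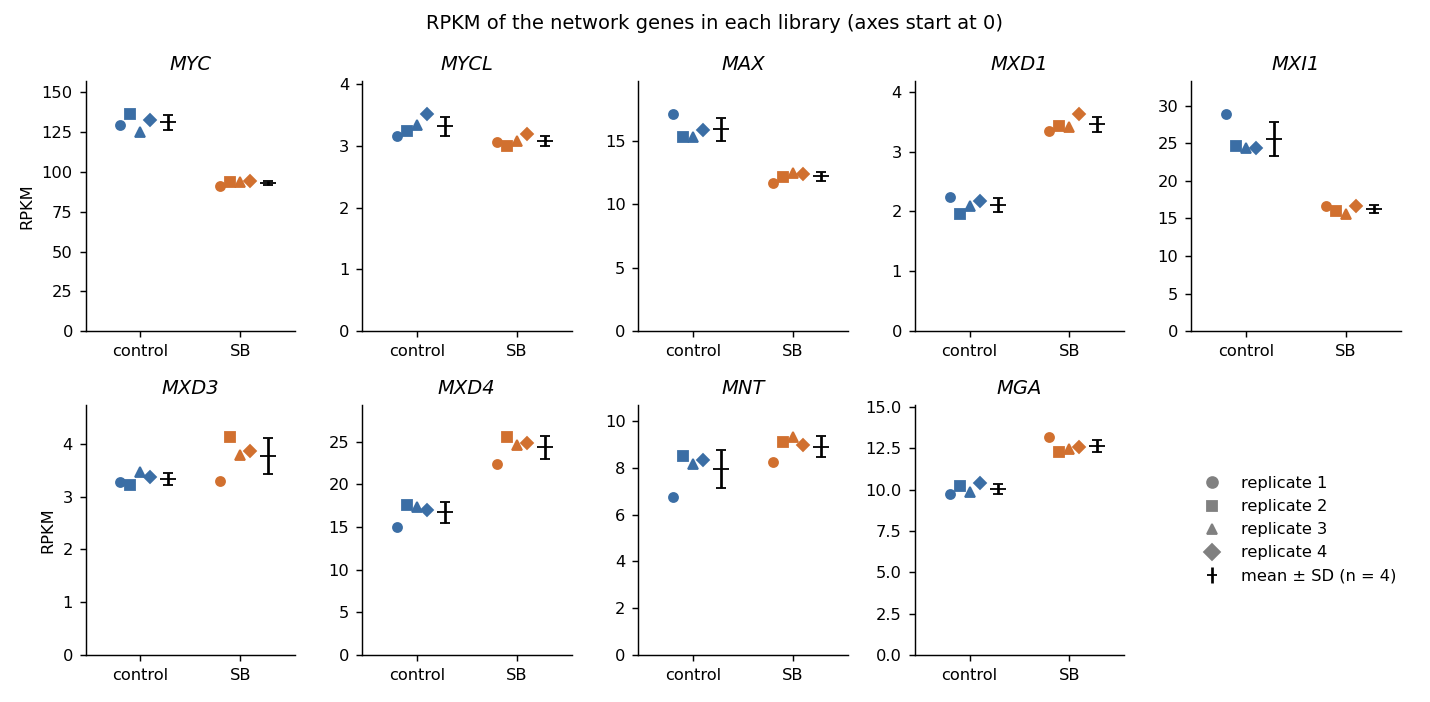
RPKM level of each of the 9 measured members in every library, with 1 panel per gene, points for the 4 control and 4 SB replicates, and bars for the mean and the SD. MYC, MAX and MXI1 lie lower in the SB replicates and MXD1, MXD4 and MGA higher, without overlap of the groups, whereas the MYCL, MXD3 and MNT groups overlap.

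MYC is the transcription factor that drives ribosome production, metabolism and cell cycle entry, and lies at chr8:127735434-127742951 on the plus strand (hg38, GENCODE release 44, as for all gene positions here). Its RPKM level in control replicates 1 to 4 was 129.6, 136, 125 and 133, and in SB replicates 1 to 4 it was 91.1, 93.4, 93.6 and 94.0. Every SB library lay below every control library. The mean level went from 131 ± 4.80 RPKM to 93.0 ± 1.29 RPKM (SD, n = 4 each), which is 71.1% of the control level. The log2 difference was -0.49 (SE 0.036, 95% interval -0.57 to -0.41), with a limma adjusted p of 3.56e-06. Alone, by an exact two-sided permutation test of 4 against 4, MYC gave p = 0.0286, the smallest this design allows. These values rested on 8288 to 13047 reads per library. The MYC level was high in the control group, at the 97.1 percentile of all genes. A difference of this size or larger in either direction was found for 11.3% of all genes.

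MYCL, a MYC relative best known from small cell lung cancer, lies at chr1:39895428-39902256 on the minus strand. Control replicates 1 to 4 gave 3.156, 3.24, 3.33 and 3.52 RPKM, and SB replicates 1 to 4 gave 3.05, 2.99, 3.07 and 3.20 RPKM. The groups overlapped by a small margin. The log2 difference was -0.080 (SE 0.037, 95% interval -0.16 to 0.0036; limma adjusted p = 0.0838; exact permutation p = 0.0571). Without control replicate 1 it was -0.097, with a limma adjusted p of 0.0169, and without TMM factors it was 0.00033 (limma adjusted p = 0.994). Thus MYC made up nearly all of the MYC family signal, with 131 of the 134 RPKM summed over both genes in the control group.

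MAX, the shared partner of all other members, lies at chr14:65006174-65102695 on the minus strand. Its control levels were 17.1, 15.3, 15.3 and 15.9 RPKM, and its SB levels were 11.7, 12.2, 12.5 and 12.4 RPKM. All SB libraries lay below all control libraries. The mean level went from 15.9 ± 0.875 to 12.2 ± 0.359 RPKM (SD, n = 4 each), 76.8% of control, with a log2 difference of -0.36 (SE 0.044, limma adjusted p = 7.68e-05). MAX shares 822 exon bases with FNTB on the opposite strand, which encodes a farnesyltransferase subunit and had a log2 difference of 0.14 (limma adjusted p = 0.00871). The study names a stranded library kit. Whether reads were also counted by strand is not given in the sources used here, so the share of either gene in such reads cannot be told apart. The ratio of MYC to MAX levels was 8.26 ± 0.564 in the control group and 7.63 ± 0.129 in the SB group (SD, n = 4 each), and the ranges overlapped. The overlap came from control replicate 1 alone, at 7.56. The remaining control libraries ran from 8.19 to 8.93 and the SB libraries from 7.49 to 7.79.

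The E-box read by all dimers of the network was looked up in the promoters of the members themselves. RefSeq windows on GRCh38.p14, from 250 bases before to 50 bases after a transcript start, were available for 9 of the 10 listed genes, MYCN included and MYC not. The palindrome CACGTG, which reads the same on both strands, was found in 2 of the 14 windows of these genes, those of MXD4 and MNT, and in 7.26% of all 35116 windows. The 250 bases before the start are shown for both of these genes, whose E-boxes in capitals begin 238 and 193 bases before the start, and for MXD1, whose difference was as large as that of MXD4 and whose window lacks these letters. They lie at chr4:2262110-2262359 (minus strand) for MXD4, chr17:2401061-2401310 (minus strand) for MNT and chr2:69914859-69915108 (plus strand) for MXD1, and are written 5′ to 3′ along the gene.
MXD4: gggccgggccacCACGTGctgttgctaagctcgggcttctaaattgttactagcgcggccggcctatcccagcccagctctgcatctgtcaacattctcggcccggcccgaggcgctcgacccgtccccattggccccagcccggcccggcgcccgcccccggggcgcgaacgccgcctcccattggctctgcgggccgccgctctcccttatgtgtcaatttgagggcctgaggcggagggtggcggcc
MNT: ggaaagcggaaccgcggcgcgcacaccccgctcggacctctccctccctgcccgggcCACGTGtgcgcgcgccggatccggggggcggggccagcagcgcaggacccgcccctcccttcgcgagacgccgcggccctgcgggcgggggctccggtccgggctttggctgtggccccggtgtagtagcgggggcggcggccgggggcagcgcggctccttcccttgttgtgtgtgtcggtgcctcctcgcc
MXD1: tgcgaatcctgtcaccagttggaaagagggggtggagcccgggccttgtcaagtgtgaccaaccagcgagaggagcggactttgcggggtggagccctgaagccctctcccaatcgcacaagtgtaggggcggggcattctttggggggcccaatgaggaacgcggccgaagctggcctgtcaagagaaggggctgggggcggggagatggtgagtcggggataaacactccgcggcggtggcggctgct
A match of letters is a description of the window and not a measured binding site.

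The 4 MXD genes moved in opposite directions. MXD1, one of the first antagonists found and one induced in differentiating cells, lies at chr2:69897688-69942945 on the plus strand. It was read at 2.23, 1.95, 2.08 and 2.17 RPKM in the control replicates and at 3.35, 3.43, 3.40 and 3.63 RPKM in the SB replicates, far outside the spread of either group. The mean rose from 2.11 ± 0.123 to 3.46 ± 0.123 RPKM (SD, n = 4 each), 164% of control, with a log2 difference of 0.52 (SE 0.040, limma adjusted p = 4.24e-06). With a pseudocount of 0.1 RPKM the log2 difference of MXD1 was 0.69, against 0.54 for MXD4. MXD1 shares 237 exon bases on the same strand with SNRNP27, a spliceosome gene with a log2 difference of -0.070 (limma adjusted p = 0.493). The promoter window printed above lies inside the span of MXD1, and a start at the upstream end of that span was not searched for the E-box.

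MXD4, whose promoter with an E-box is printed above, encodes a MAX-binding repressor and lies at chr4:2247432-2262109 on the minus strand. Its control levels were 15.0, 17.6, 17.3 and 17.0 RPKM and its SB levels were 22.4, 25.5, 24.6 and 24.9 RPKM. The lowest SB library lay well above the highest control library. The mean rose from 16.7 ± 1.21 to 24.4 ± 1.36 RPKM (SD, n = 4 each), 146% of control (log2 difference 0.52, SE 0.058, limma adjusted p = 4.41e-05).

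MXI1, also known as MXD2, was the highest antagonist in the control group and lies at chr10:110207605-110287365 on the plus strand. Its control levels were 28.9, 24.6, 24.4 and 24.4 RPKM and its SB levels 16.7, 16.0, 15.6 and 16.7 RPKM. Control replicate 1 was the highest, and the other control libraries also lay above all SB libraries. The mean fell from 25.6 ± 2.24 to 16.2 ± 0.545 RPKM (SD, n = 4 each), 63.5% of control. The log2 difference was -0.62 (SE 0.058, limma adjusted p = 1.26e-05), and it was -0.56 without control replicate 1.

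MXD3, an MXD gene expressed in S phase, lies at chr5:177301461-177312757 on the minus strand and was read at 3.27, 3.22, 3.46 and 3.37 RPKM in the control replicates. In the SB replicates it was read at 3.30, 4.12, 3.79 and 3.86 RPKM. SB replicate 1 lay within the control range, so the groups overlapped. The log2 difference of 0.14 (SE 0.053) passed the threshold with a limma adjusted p of 0.0433, while the exact permutation p was 0.0857. The call was lost when any 1 library other than SB replicate 1 was left out (limma adjusted p up to 0.123). Without SB replicate 1 the log2 difference was 0.19, with a limma adjusted p of 0.00483. MXD3 also shares 926 exon bases on the same strand with RAB24, a vesicle transport gene (log2 difference 0.0086, limma adjusted p = 0.912), and 1148 on the opposite strand with PRELID1, a mitochondrial lipid transfer gene (log2 difference -0.69, limma adjusted p = 9.66e-07). Its values are uncertain for that reason.

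MNT, a widely expressed repressor that sets a threshold for MYC, lies at chr17:2384073-2401104 on the minus strand. It was read at 6.75, 8.50, 8.18 and 8.34 RPKM in the control replicates and at 8.26, 9.10, 9.31 and 8.97 RPKM in the SB replicates. Control replicate 1 was low, and the remaining libraries of the groups overlapped. The log2 difference was 0.15 (SE 0.067, 95% interval 0.0023 to 0.30), with a limma adjusted p of 0.0691 and an exact permutation p of 0.0857. Without control replicate 1 it was 0.085 (limma adjusted p = 0.0694). Without the authors' TMM factors MNT passed the threshold, with a log2 difference of 0.25 (limma adjusted p = 0.0109).

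MGA, a very large protein with a T-box domain besides its MAX-binding domain, is a scaffold of a variant polycomb repressive complex that contains PCGF6. The gene lies at chr15:41621134-41773081 on the plus strand. Its control levels were 9.72, 10.2, 9.82 and 10.4 RPKM and its SB levels were 13.2, 12.3, 12.4 and 12.6 RPKM, with no overlap. The mean rose from 10.0 ± 0.308 to 12.6 ± 0.376 RPKM (SD, n = 4 each), 126% of control, with a log2 difference of 0.30 (SE 0.036, limma adjusted p = 6.24e-05). As for MYC, the exact permutation p was 0.0286 for MAX, MXD1, MXI1, MXD4 and MGA.

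**Figure D2:**
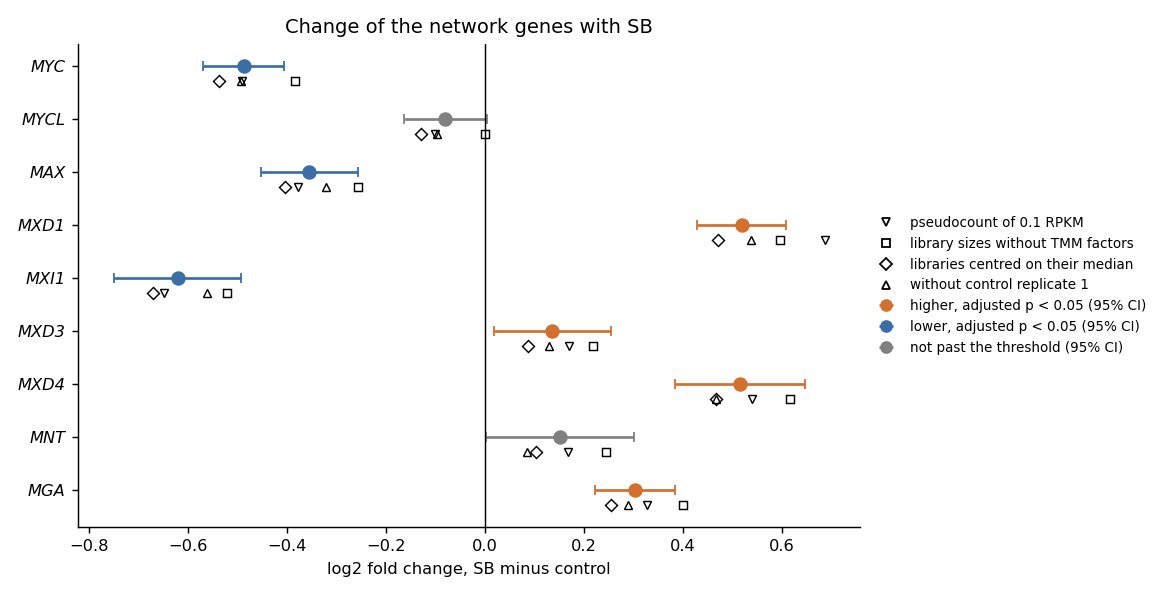
Difference between SB and control in log2(RPKM + 1) for each measured member, with its 95% interval from limma. MXI1 (-0.62), MYC (-0.49) and MAX (-0.36) lie below 0, MXD1 and MXD4 (both 0.52) and MGA (0.30) above it, and the intervals of MYCL, MXD3 and MNT lie across or close to 0.

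The order of levels per length changed in its middle and at its end. In the control group it ran MYC, MXI1, MXD4, MAX, MGA, MNT, MXD3, MYCL and MXD1, where MXD4 and MAX overlapped in range, as did MXD3 and MYCL. In the SB group it ran MYC, MXD4, MXI1, MGA, MAX, MNT, MXD3, MXD1 and MYCL, where MGA and MAX overlapped, as did MXD3 and MXD1. MYC was thus far above every other member in both groups. MXD4 and MXI1 changed places, and MXD1 passed MYCL.

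The opposite moves of MXI1 and MXD4 left the sum of the 4 MXD genes almost level under the authors' TMM scaling. This sum was 47.7 ± 1.12 RPKM in the control group and 47.8 ± 1.6 RPKM in the SB group (SD, n = 4 each). A sum, unlike a ratio within a library, depends on that scaling. Without it, control levels are multiplied by 0.957 to 0.969 and SB levels by 1.03 to 1.04. The ratio of MXI1 to MXD4 levels went from 1.54 ± 0.261 to 0.669 ± 0.0545. Control replicate 1 gave 1.93, against 1.39 to 1.43 in the remaining control libraries and 0.627 to 0.745 in the SB libraries. Within the summed level of the 6 antagonists, MXI1 went from 38.9% to 23.4%, MXD4 from 25.5% to 35.1%, MGA from 15.3% to 18.2% and MXD1 from 3.21% to 4.98%. In control replicate 1 the MXI1 share was 43.9% and the MXD4 share 22.7%. The remaining control libraries gave 37.1% to 37.4% for MXI1 and 25.9% to 26.7% for MXD4. So the make-up of the antagonists differed more than their sum, which was 65.7 ± 0.347 RPKM in the control group and 69.3 ± 1.61 RPKM in the SB group.

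MYC stood at 1.99 ± 0.0644 times the summed antagonists in the control group, with libraries from 1.92 to 2.07. In the SB group the ratio was 1.34 ± 0.0158, with libraries from 1.33 to 1.36 (SD, n = 4 each). The ranges lay far apart. On the log2 scale the ratio went from 0.99 to 0.42, a difference of -0.57, which ran from -0.59 to -0.55 when single libraries were left out. A ratio within a library does not depend on how the library is scaled. No test is given for this ratio, since its genes were listed with results of these data known. It compares RNA levels, and protein was not measured in these files.

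**Figure D3:**
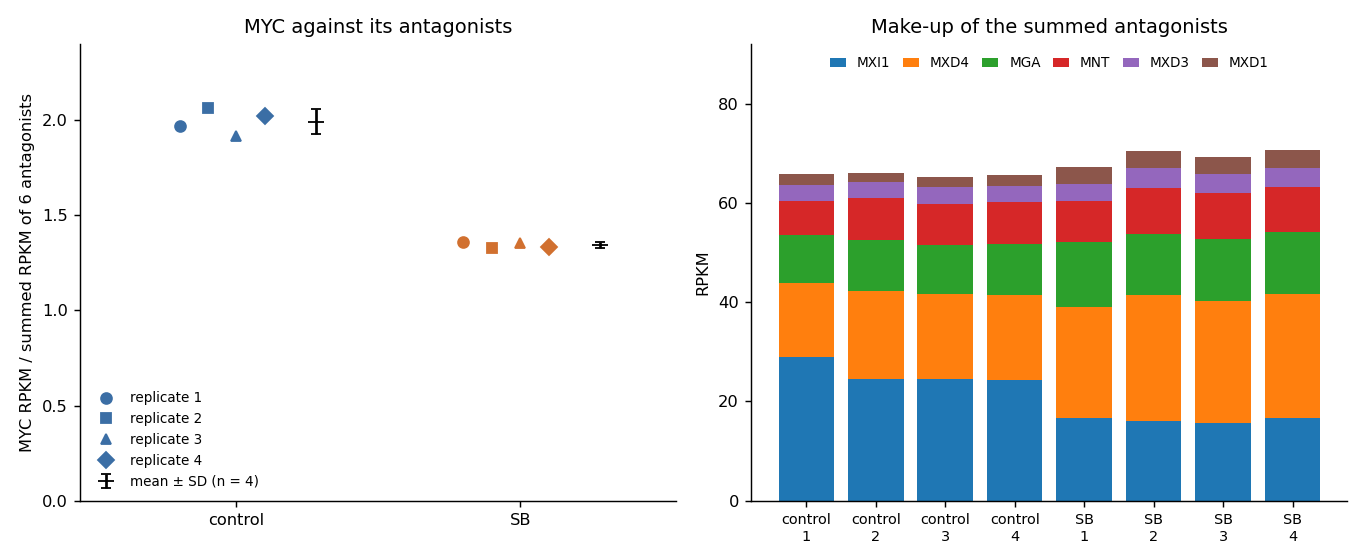
Ratio of the MYC level to the summed RPKM of the 6 antagonists in each library, and the RPKM of each antagonist stacked to that sum in each library. The ratio runs from 1.92 to 2.07 among control libraries and from 1.33 to 1.36 among SB libraries. The MXI1 part of the stack is smaller and the MXD4 part larger in the SB libraries, with mean shares there of 23.4% and 35.1%.

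The genes whose log2(RPKM + 1) followed MYC most closely over the 8 libraries were CIRH1A (r = 0.997), which encodes a nucleolar ribosome assembly factor, the proteasome subunit gene PSMB2 (r = 0.997), HADH of fatty acid oxidation (r = 0.997), the replicative helicase gene MCM4 (r = 0.996) and the insulin receptor substrate gene IRS4 (r = 0.996). These Pearson values are a description. They mostly follow the step between the groups, and 1374 genes had an r above 0.95. The mean level of IRS4 went from 131 ± 7.19 to 48.3 ± 0.920 RPKM and that of MCM4 from 149 ± 4.03 to 110.2 ± 1.18 RPKM (SD, n = 4 each).

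Genes around the network were taken from lists written from general knowledge, with earlier results of these data known. Their rises and falls are differences in log2(RPKM + 1), as for the members. Of 50 genes commonly listed as activated by MYC, 49 had a row (EIF4A1 had none), of which 42 were called lower, 1 higher and 6 neither. Their median log2 difference was -0.42, against 0.0045 for all genes, and 41 had groups without overlap. The shares were 85.7% called lower and 2.04% higher, against 32.6% and 33.0% of all genes, where 61.5% had groups without overlap. The largest falls were those of NOP56, a core protein of the box C/D particles that modify ribosomal RNA, and LDHA, the lactate dehydrogenase subunit of glycolysis. NOP56 fell from 196 ± 3.82 to 103 ± 0.870 RPKM (log2 difference -0.92, limma adjusted p = 7.79e-08) and LDHA from 382 ± 20.3 to 208 ± 3.52 RPKM (-0.87, limma adjusted p = 4.39e-07). The gene that rose was TFRC, the transferrin receptor that takes up iron, from 31.2 ± 0.566 to 50.4 ± 1.31 RPKM (0.67, limma adjusted p = 5.19e-07; SD, n = 4 for each mean).

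Of 16 genes commonly listed as repressed by MYC, 15 had a row (COL1A2 had none), of which 3 were called higher, 6 lower and 6 neither (median -0.058). With 60.0% of them called in either direction, against 65.6% of all genes, this list lay near the background. By direction, 40.0% were called lower, against 32.6% of all genes. The 3 of 15 called higher were a smaller share than the 33.0% of all genes. CDKN1A, which encodes the cyclin-dependent kinase inhibitor p21, rose from 7.67 ± 0.721 to 16.3 ± 0.617 RPKM (log2 difference 0.997, limma adjusted p = 1.14e-06). CDKN2B, another such inhibitor, rose by 0.43 (limma adjusted p = 9.11e-05). The stress gene GADD45B fell by 0.48 (limma adjusted p = 1.58e-04). Without control replicate 1 the count of genes called higher was 5 in place of 3.

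All 13 listed coactivators and partners of MYC had a row, of which 4 were called higher, 7 lower and 2 neither (median log2 difference -0.088). That is 30.8% higher and 53.8% lower, against 33.0% and 32.6% of all genes. RUVBL1, an ATPase of chromatin remodelling complexes, went from 132 ± 3.56 to 90.4 ± 0.934 RPKM (-0.55, limma adjusted p = 1.18e-06), and ACTL6A, an actin-related subunit of such complexes, fell by 0.38 (limma adjusted p = 7.67e-05). HCFC1, a MYC-binding cofactor, rose by 0.42 (limma adjusted p = 0.00800) and TRRAP, the scaffold through which MYC recruits acetyltransferases, by 0.39 (limma adjusted p = 6.13e-04). Control replicate 1 was the lowest library for both. For HCFC1 it gave 17.0 RPKM, against 23.4 to 25.3 RPKM in the remaining control libraries and 28.2 to 32.7 RPKM in the SB libraries. For TRRAP it gave 19.3 RPKM, against 21.5 to 24.3 RPKM and 29.3 to 29.8 RPKM.

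The 16 SIN3 and NCOR corepressor genes, through which MXD proteins and nuclear receptors silence targets, had 4 called higher, 9 lower and 3 neither (median -0.21), or 25.0% higher and 56.2% lower against the same 33.0% and 32.6% of all genes. SIN3B rose by 0.42 (limma adjusted p = 2.66e-05). ING2 fell by 0.53 (limma adjusted p = 9.78e-05) and SAP30 by 0.44 (limma adjusted p = 4.09e-04), both of them subunits of the SIN3 complex. Among the 10 genes of the MGA-containing polycomb complex, RING1, an E3 ligase for histone H2A, rose by 0.24 (limma adjusted p = 2.02e-04). There YAF2, a RING1 partner, fell by 0.34 (limma adjusted p = 6.44e-04) and PCGF6 by 0.26 (limma adjusted p = 0.00217), with 1 higher, 3 lower and 6 neither (median -0.077), and 5 lower without control replicate 1 or without control replicate 3. With 40.0% called, this list lay below the 65.6% of all genes.

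Of 13 genes for the turnover of the MYC protein, 1 was called higher, 5 lower and 7 neither (median -0.17). The 38.5% called lower lay near the 32.6% of all genes, and the 46.2% called in either direction below the 65.6% of all genes. The 7.69% called higher lay below the 33.0% of all genes. GSK3B, the kinase that marks MYC for degradation, rose by 0.15 (limma adjusted p = 0.00170). STUB1 and SKP2, both ubiquitin ligase genes, fell by 0.39 (limma adjusted p = 3.79e-04) and 0.31 (limma adjusted p = 1.30e-04). Without control replicate 1, 2 of these 13 genes were called higher and 9 lower. In the parallel MLX branch, whose glucose-sensing factors pair with MLX, MLXIP rose from 12.9 ± 2.14 to 19.8 ± 0.583 RPKM (SD, n = 4 each; 0.60, limma adjusted p = 6.16e-04). MLXIPL, also called ChREBP, rose by 0.24 (limma adjusted p = 0.0457), and MLX itself fell by 0.12 (limma adjusted p = 0.0198). Of the 3 genes of this branch, 66.7% were thus called higher and 33.3% lower, against 33.0% and 32.6% of all genes. The rise of 1 of these 3 genes was no longer called without control replicate 3 or without any 1 of the SB replicates, nor was the fall of MLX without SB replicate 3 or SB replicate 4. Control replicate 1 had the far value of its group for MLXIP, MLXIPL and YAF2. Its MLXIP level was 9.71 RPKM, against 13.96 to 14.03 RPKM in the remaining control libraries and 19.3 to 20.4 RPKM in the SB libraries. For MLXIPL it gave 4.09 RPKM, against 5.75 to 6.07 RPKM in the remaining control libraries and 6.30 to 6.91 RPKM in the SB libraries.

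**Figure D4:**
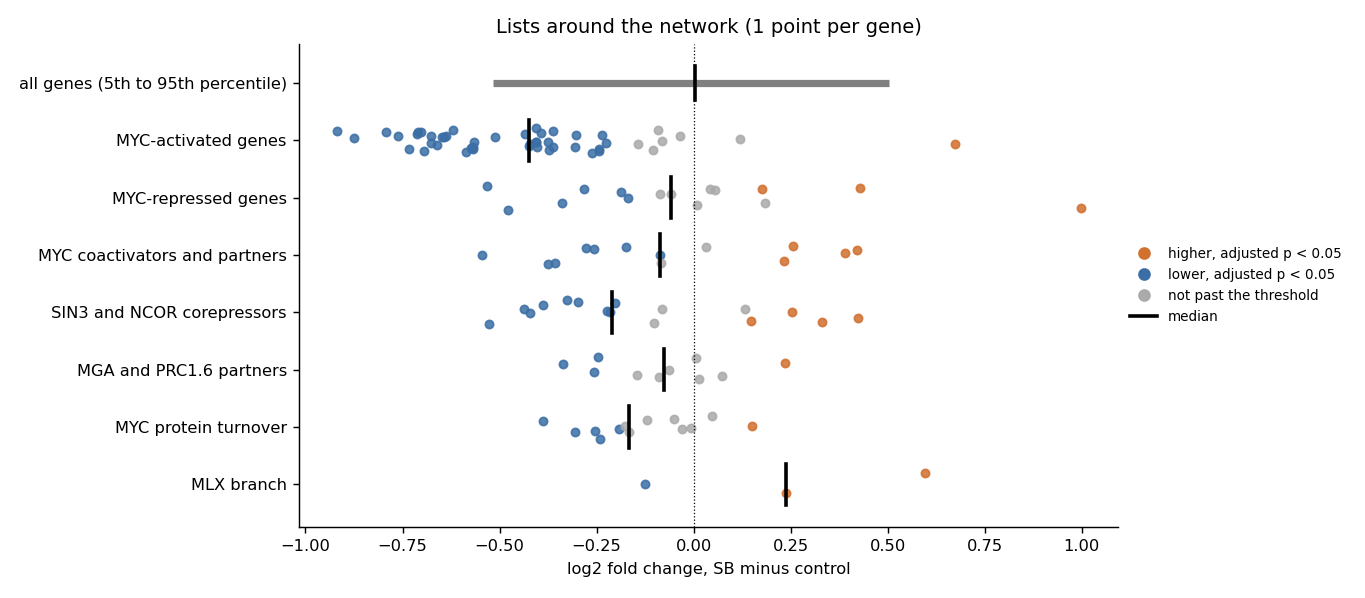
Difference between SB and control in log2(RPKM + 1) for every gene of the 7 lists, 1 point per gene, with a bar for the median of each list and the range from the 5th to the 95th percentile of all genes. The genes listed as activated by MYC lie mostly below 0 with a median of -0.42, and the other lists lie on both sides of 0.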

How the data were processed

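Total RNA of 8 cell cultures was sequenced. The authors mapped the reads to hg38 with TopHat2 2.1.0, counted them per gene with featureCounts 1.5.0, kept genes that passed 1 CPM in 2 or more samples, scaled library sizes with TMM in edgeR 3.16.5 and deposited RPKM values per library. The authors also deposited a log2 fold change and mean log2 CPM per gene with p-values and false discovery rates, which hold their own comparison and were not used. No library's column was left out (0 unused).

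The groups and replicate numbers come from the sample labels. RPKM values were compared as log2(RPKM + 1) with lmFit and eBayes of limma 3.58.1 in R 4.3.3, with Benjamini-Hochberg adjustment over all 14526 genes. Single members were also compared with an exact two-sided permutation test, whose smallest p is 0.0286. Whole reads were recovered from the RPKM steps for the voom alternative and for the depth, and intervals cover the spread between libraries.

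The members and lists were chosen with earlier results of these data known. The genes named are all members, in each list the called genes at the extremes (2 upward and 2 downward by log2 difference), and the 5 genes with the highest r to MYC. Some genes that this rule names are not reported here. Gene positions and exon overlaps come from GENCODE release 44, and promoters from RefSeq. Alternatives were a pseudocount of 0.1, no TMM factors, median centring, a mean of at least 1 RPKM, a replicate block, voom and leaving out each library.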

Additional observations from a re-analysis of the deposited data

Results flagged for a closer look

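Values of 5 genes in the control group had 1 library far from the other 3, and it was control replicate 1 each time. The gap to the nearest library, as a share of the range of the group in log2(RPKM + 1), was 0.95 for MXI1, 0.832 for MNT, 0.986 for MLXIP, 0.858 for MLXIPL and 0.855 for YAF2. Each exceeds the 95% critical value of Dixon's test for 4 samples. In all, 78 groups were examined, of which chance picks out about 1 in 20. Without that library the log2 difference was -0.56 for MXI1 and 0.085 for MNT.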

How the results depend on the processing

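MYC, MAX, MXD1, MXI1, MXD4 and MGA kept their direction and their call under every alternative, with log2 differences over the settings other than leaving out a library from -0.54 to -0.38 for MYC, -0.40 to -0.26 for MAX, 0.47 to 0.71 for MXD1, -0.67 to -0.52 for MXI1, 0.47 to 0.62 for MXD4 and 0.26 to 0.40 for MGA. Without TMM factors MYCL changed sign to 0.00033 (limma adjusted p = 0.994), MNT passed the threshold at 0.25 (adjusted p = 0.0109), and calls over all genes became 6253 higher and 3357 lower in place of 4787 and 4740. The median of all genes then moved from 0.0045 to 0.079. With libraries centred on their median, MYCL passed at -0.13 (adjusted p = 0.0124), MXD3 no longer did at 0.088 (adjusted p = 0.167), and 3866 genes were higher and 5564 lower.

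Leaving out single libraries gave -0.097 to -0.057 for MYCL, 0.10 to 0.19 for MXD3 and 0.085 to 0.18 for MNT. In the lists, the MLX branch had 1 gene higher with the pseudocount of 0.1 or median centring and 0 lower without TMM factors (limma; 1 to 2 and 0 to 1 when libraries were left out). The MGA complex had 3 higher without TMM factors and 6 lower with centring (3 to 5 lower without single libraries), and MYC turnover 3 higher and 8 lower under these settings (1 to 2 and 5 to 9). Genes repressed by MYC had 2 to 5 higher when libraries were left out. The cause of these changes was not tested.

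With the replicate number as a block, MNT passed the threshold (log2 difference 0.15, adjusted p = 0.0155), genes activated by MYC had 2 higher, and 4885 genes were higher and 4894 lower. The SE with the block was 0.035 for MXD4 and 0.043 for MNT, against 0.058 and 0.067 without it. Same-numbered libraries correlated at 0.38, 0.33, 0.17 and -0.16 in their deviations from the group means. Their mean was 0.18, against -0.054 for libraries of different numbers. The numbers were not treated as pairs in the main comparison, and whether same-numbered cultures shared an effect was not tested.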
